A study of Mus musculus with 24 samples.

Results

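The nuclear genes of the mitochondrial respiratory chain and ATP synthase were taken as all gene symbols that begin with Nduf followed by a, b, c, s or v and a digit, with Uqcr, with Cox followed by a digit from 4 to 8, or with Atp5, leaving out named pseudogenes. This rule, which uses names alone, gave 80 of the 24421 genes counted: 37 of complex I, 8 of complex III, 18 of complex IV and 17 of complex V, the ATP synthase. Of the 80 genes, 74 had at least 1 read in some library and 70 had a mean of at least 5 CPM (a gene's reads per 1000000 reads assigned to genes in the library). The subunits encoded by the mitochondrial genome and the succinate dehydrogenase genes of complex II are outside the rule, and the former were not analysed here. Names and biology part in a few places: Ndufa4 is counted by name with complex I although its protein is now placed in complex IV, Cox7a2l encodes an assembly factor of respiratory supercomplexes, and Atp5s and Atp5sl are named after the synthase without being subunits of it.

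The respiratory chain moves electrons from NADH to oxygen in the inner mitochondrial membrane. Complex I takes electrons from NADH, complex III passes them from ubiquinol to cytochrome c, and complex IV hands them to oxygen; all these steps pump protons, and the ATP synthase uses the returning protons to make ATP. Resting and memory CD8+ T cells draw much of their ATP from this pathway, activated effector cells add glycolysis, and loss of mitochondrial function is a known feature of exhausted T cells in tumours.

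The libraries come from CD8+ T cells sorted as CD45+CD3+CD8+ from mouse pancreas or blood, followed over the weeks after birth in KC mice, a strain that develops pancreatic neoplasia, and in WT B6 mice. The KC pancreas group has 12 libraries, 3 at 4 weeks, 2 at 9, 3 at 13, 2 at 20 and 2 at 30 weeks. The KC blood group has 9 libraries, 2 at 4 weeks, 1 at 9, 3 at 13, 1 at 20 and 2 at 30 weeks. The WT groups have 2 pancreas libraries, of 9 and 30 weeks, and 1 blood library of 30 weeks. The labels name no agent in any group and spell out neither the KC alleles nor the cell type that drives them. Libraries are called here by their titles, in which P8 marks pancreas and B8 blood; the labels do not say whether a number shared by a P8 and a B8 title is 1 mouse, nor whether cells of several mice were pooled. p-values therefore measure the spread between these samples, part of which may be technical.

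Reads assigned to genes ranged from 6352070 to 16716169 per library, and 10066 to 12949 genes were detected. The 8 T cell markers together reached 6251 to 19023 CPM, and Cd3e, Cd8a and Cd8b1 were present in all 24 libraries. Of other cells, the acinar markers summed to 6469 CPM in Sample_42P8, 3610 in Sample_43P8, 2757 in Sample_W1P8 and 1254 in Sample_41P8, but to at most 59.6 CPM in the blood libraries. Of the ductal markers, Krt7 was at 0 throughout and Epcam reached 29.6 CPM (Sample_205P8). The platelet marker Ppbp was at 38.7 to 289 CPM in KC blood and 1.46 to 5.35 CPM in KC pancreas. Itga2b, also a platelet marker, peaked in the other tissue, at 92.2 CPM in KC pancreas against 5.05 in KC blood, with medians of 0.0960 and 0.417 CPM. The macrophage and monocyte markers summed to 322 CPM in Sample_95B8 and 162 in Sample_302P8. Fibroblast markers reached 400 CPM in Sample_43P8, and erythroid markers 248 CPM in Sample_95B8. Traces of genes that were strong in a single library were shared within 2 sets of 12 libraries: set 1 is made up of all 3 WT libraries, of KC pancreas at 4 and 13 weeks and of Sample_131B8, Sample_42B8 and Sample_43B8 from blood, and set 2 of the others. These 95 trace genes include none of the 80 genes described here. In such bulk libraries, fewer cells of a type and less RNA per cell cannot be told apart.

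Of the 80 genes, 78 had a single entry under their symbol in the GENCODE annotation of mm10, spread over 19 chromosomes. Atp5b, the catalytic beta subunit, lies at chr10:128083273-128090391 on the plus strand, Cox7a2l at chr17:83501918-83517330 on the minus strand, and Uqcrh, the hinge protein of complex III, at chr4:116066965-116075071 on the minus strand. Another annotated gene overlaps 35 of the 78, taking whole gene spans with their introns. The use of strand in counting is not given in the sources used here. Reads in a stretch common to both genes of such a pair therefore cannot be assigned with certainty. Reads listed as ambiguous made up 0.26% to 1.13% of a library. For 19 members, over 5% of the stretches of 50 bases recur exactly in at least 1 other gene. Atp5o had the largest share, 41.1%, and Atp5g2 had 36.7%. Counts of these genes depend on how repeated matches were treated.

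Nuclear respiratory genes lack a shared operon, and their promoters are known for sites of nuclear respiratory factor 1 (NRF1), of ETS family factors such as GABP, and of YY1. RefSeq promoter windows of GRCm38.p6, from 250 bases before to 50 after a gene's start, were found for 66 members and compared with 17492 protein-coding genes. The NRF1 motif, searched as GCGC, A, any base and GCGC in a row, was present on either strand in 22.7% of members and in 7.17% of coding genes. CCGGAAG, the ETS core, was present in 21.2% of members and 12.9% of coding genes, and AAGATGGC, the YY1 core, in 16.7% and 3.57%. CCAAT was found in 43.9% of members and 42.3% of coding genes, and TATAAA in 10.6% and 14.8%. By complex, the NRF1 letters occurred in 7 of 32 genes of complex I, 1 of 5 of III, 1 of 13 of IV and 6 of 16 of V. The 150 bases before the RefSeq start are shown for the most abundant member of each complex with 1 of the first 3 motifs there. The bases after that start also had to occur in a GENCODE transcript. They are shown because the same factors are a known common feature of genes whose levels are compared below. The GENCODE spans of Atp5c1 and Cox6a1 begin at 10080510 and 115348981, inside the stretches shown. The marked NRF1 letters of Atp5c1 and ETS letters of Cox6a1 thus lie within the annotated genes. Capitals mark the motif on the strand shown or its reverse complement.
Ndufs3, complex I, chr2:90904722-90904871, minus strand, ETS: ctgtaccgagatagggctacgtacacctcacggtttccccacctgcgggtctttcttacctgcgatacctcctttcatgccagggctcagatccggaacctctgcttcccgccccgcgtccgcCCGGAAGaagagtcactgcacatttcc
Uqcrh, complex III, chr4:116075071-116075220, minus strand, ETS: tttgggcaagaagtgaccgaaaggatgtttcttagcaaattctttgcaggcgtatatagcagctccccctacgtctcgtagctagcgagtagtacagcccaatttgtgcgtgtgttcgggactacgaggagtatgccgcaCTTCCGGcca
Cox6a1, complex IV, chr5:115348959-115349108, minus strand, NRF1 then ETS: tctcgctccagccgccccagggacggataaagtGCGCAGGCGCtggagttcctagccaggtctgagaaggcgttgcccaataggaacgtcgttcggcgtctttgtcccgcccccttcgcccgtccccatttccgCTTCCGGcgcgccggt
Atp5c1, complex V, chr2:10080433-10080582, minus strand, NRF1: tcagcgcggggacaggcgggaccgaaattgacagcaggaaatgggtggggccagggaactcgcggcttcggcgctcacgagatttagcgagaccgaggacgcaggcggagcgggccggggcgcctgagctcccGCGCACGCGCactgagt
A match describes the letters only and says nothing of binding.

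Together the 80 genes took a similar share of the reads in both tissues. Their summed level was 5587 CPM ± 1353 (SD, n = 12) in KC pancreas, with a lowest value of 4256 (Sample_303P8), a median of 4906 and a highest of 8400 (Sample_132P8). In KC blood it was 5457 CPM ± 1577 (SD, n = 9), with a lowest value of 3375 (Sample_302B8), a median of 5462 and a highest of 8652 (Sample_42B8). The WT pancreas libraries had 4465 and 5042 CPM and the WT blood library 5052 CPM. All WT values fell inside both KC ranges, and among the 9 KC title numbers present in both tissues the sum was higher in pancreas in 4. Complex V held a median of 46.2% of the sum over the 24 libraries, complex IV 21.5%, complex I 21.03% and complex III 7.64%. The T cell markers were lowest in Sample_302B8, which also had the lowest summed level of the 80 genes, and highest in Sample_132P8, which had the second highest; the part of marker content in the sums was not tested.

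**Figure D1:**
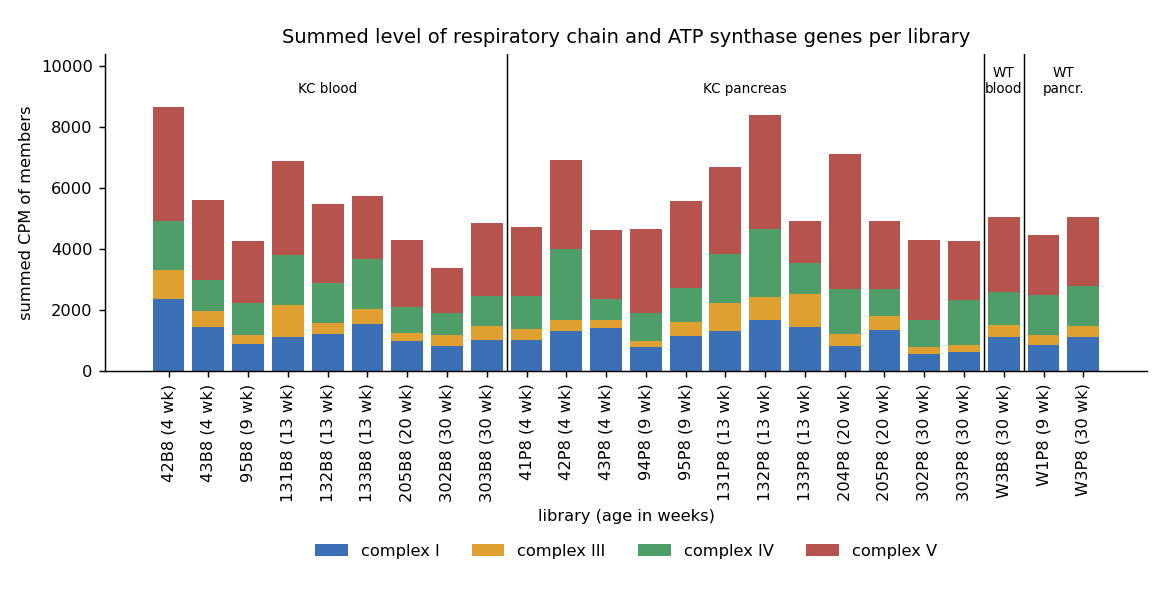
Summed CPM of the members per library (y axis), stacked by complex, for each library in order of group and age (x axis, titles without their first word). The highest bars are Sample_42B8 at 8652 and Sample_132P8 at 8400 CPM, the lowest is Sample_302B8 at 3375 CPM, and the KC pancreas and KC blood bars cover overlapping ranges.

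Complex V held the largest summed level, led by the catalytic subunits. Atp5b (beta) had 991 CPM ± 381 (SD, n = 12) in KC pancreas, from 247 (Sample_133P8) over a median of 974 to 1822 (Sample_204P8), and 679 CPM ± 218 (SD, n = 9) in KC blood, from 407 (Sample_43B8) over 664 to 1068 (Sample_303B8). It was the highest of the 80 genes in 16 of 24 libraries, and its tissue ranges overlap. Atp5a1 (alpha), highest in 4 libraries, had 615 CPM ± 324 (SD, n = 12) in KC pancreas and 503 CPM ± 273 (SD, n = 9) in KC blood. Atp5c1 (gamma, the rotor shaft) followed with 219 CPM ± 120 (SD, n = 12) and 253 CPM ± 175 (SD, n = 9). Per kilobase of transcript, the mean level of Atp5b over the 24 libraries was 438 CPM, that of Atp5h, a subunit of the peripheral stalk, 262 and that of Atp5a1 234. At the other end stood Atp5s, a coupling factor, with a mean of 2.55 CPM: it was at 19.6 CPM in Sample_94P8, 17.6 in Sample_303P8, 12.5 in Sample_W3P8 and 8.42 in Sample_95P8, and at or below 0.811 CPM in the other 20 libraries.

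In complex IV the highest level belonged to Cox7a2l, with 494 CPM ± 352 (SD, n = 12) in KC pancreas, from 78.5 (Sample_133P8) over a median of 458 to 1382 (Sample_42P8), and 331 CPM ± 196 (SD, n = 9) in KC blood, from 98.8 (Sample_43B8) over 316 to 664 (Sample_132B8). The WT libraries had 573 CPM in blood and 630 and 848 in pancreas, inside the KC pancreas range. Cox7c, a small structural subunit, had 169 CPM ± 115 (SD, n = 12) in KC pancreas and 202 CPM ± 117 (SD, n = 9) in KC blood, and Cox7b had 93.2 CPM ± 61.7 (SD, n = 12) and 107 CPM ± 85.2 (SD, n = 9). Per kilobase of transcript, Cox7a2l (424 CPM) and Cox7c (314 CPM) came next after Atp5b among all members.

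Tissue-restricted isoforms of complex IV were at or near 0 while their common partners were present in every library. The heart and muscle isoform Cox6a2 was listed at 0 in 22 libraries and had 5.70 CPM in Sample_41P8 and 3.34 in Sample_42P8, whereas its common partner Cox6a1 ranged from 14.7 to 305 CPM. Cox7a1, also a muscle isoform, reached at most 1.19 CPM (Sample_205B8), against 1.54 to 125 CPM for Cox7a2. The testis isoform Cox6b2 reached 8.25 CPM in Sample_95B8 and 4.75 in Sample_W1P8 and was at or below 0.299 CPM in the other 22 libraries, against 1.13 to 634 CPM for Cox6b1. Cox4i2, the lung isoform regulated by oxygen, had no read in any library, whereas Cox4i1 ranged from 6.30 to 318 CPM. Cox7b2, Cox8b and Cox8c were likewise without a read, against 5.90 to 285 CPM for Cox7b and 7.83 to 364 CPM for Cox8a. The hypoxia-linked Ndufa4l2 had no read either, against 23.8 to 273 CPM for Ndufa4. Of the muscle markers, Ckm, Myh7, Tnnt2 and Myl2 were at 0 in all libraries and Actn2 reached at most 18.1 CPM.

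Complex III was led by Uqcrh with 137 CPM ± 168 (SD, n = 12) in KC pancreas and 116 CPM ± 99.1 (SD, n = 9) in KC blood. Uqcrc2, a core protein, had 63.8 CPM ± 42.4 (SD, n = 12) and 180 CPM ± 104 (SD, n = 9), and Uqcrfs1, the Rieske iron-sulfur protein, 119 CPM ± 162 (SD, n = 12) and 73.7 CPM ± 68.6 (SD, n = 9). The summed level of this complex set the KC pancreas libraries of 13 weeks apart, at 925 (Sample_131P8), 746 (Sample_132P8) and 1063 CPM (Sample_133P8), from the other 9 KC pancreas libraries, at 183 to 476 CPM. The leading member was not the same in these libraries: Uqcrfs1 made up 66.4% of the sum in Sample_131P8 (614 CPM), Uqcrh made up 59.4% in Sample_133P8 (632 CPM), and in Sample_132P8 Uqcrh (262 CPM) stood beside Uqcr11 (253 CPM). Uqcr11, the smallest subunit, was otherwise at 31.2 CPM or less and at 0 in 3 libraries. The blood libraries of the same age had 1070 (Sample_131B8), 371 (Sample_132B8) and 515 CPM (Sample_133B8).

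Complex I had the largest number of members. Its 3 highest genes were Ndufa4, with 88.8 CPM ± 72.1 (SD, n = 12) in KC pancreas and 95.6 CPM ± 75.9 (SD, n = 9) in KC blood, Ndufa10, an accessory subunit, with 50.6 CPM ± 35.9 (SD, n = 12) and 126 CPM ± 119 (SD, n = 9), and Ndufs4, needed for assembly of the NADH-oxidising module, with 88.9 CPM ± 132.8 (SD, n = 12) and 67.0 CPM ± 60.9 (SD, n = 9). The summed level of complex I was lowest in the KC pancreas libraries of 30 weeks, at 559 (Sample_302P8) and 613 CPM (Sample_303P8), against 793 CPM or more in all other 22 libraries. The WT pancreas library of the same age had 1124 CPM and the KC blood libraries of 30 weeks had 827 and 1002 CPM. With TMM-scaled libraries, which correct for a few genes taking many reads, these 2 sums were 547 and 572 CPM and no longer the lowest, since Sample_95B8 had 484 and Sample_302B8 531 CPM. Ndufs5, a complex I subunit (chr4:123712710-123718202, minus strand), had no read in any library. Its annotated transcripts share 21.7% of their 50-base stretches with the processed copy BC002163, which had 748 reads in 20 of the libraries. The remaining stretches are not shared with that copy. Whether the transcript was absent or its reads were not counted to it was not tested.

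Single members varied widely between libraries. Over the 70 members with a mean of at least 5 CPM, the highest library stood at a median of 6.58 times the gene's own median over the 24 libraries, from 2.07 for Atp5a1 to 117 for Uqcr11, and 20 of 70 exceeded 10 times. The highest value of a member was in Sample_42B8 for 13 members, in Sample_132P8 for 11, in Sample_131B8 for 8 and in Sample_43B8 and Sample_133P8 for 7 each. This spread was near that of other genes of the same level: for means of 20 to 50 CPM the median coefficient of variation was 112% over 29 members and 126% over 2265 genes, and for means of 50 to 100 CPM it was 94.8% over 19 members and 96.9% over 1398 genes. Of all values of the 70 members, 20.5% lay below 5 CPM, against 30.6% for the 8543 genes with such a mean. The share was 29.5% in complex I, 23.4% in complex III, 10.4% in complex V and 4.55% in complex IV.

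**Figure D2:**
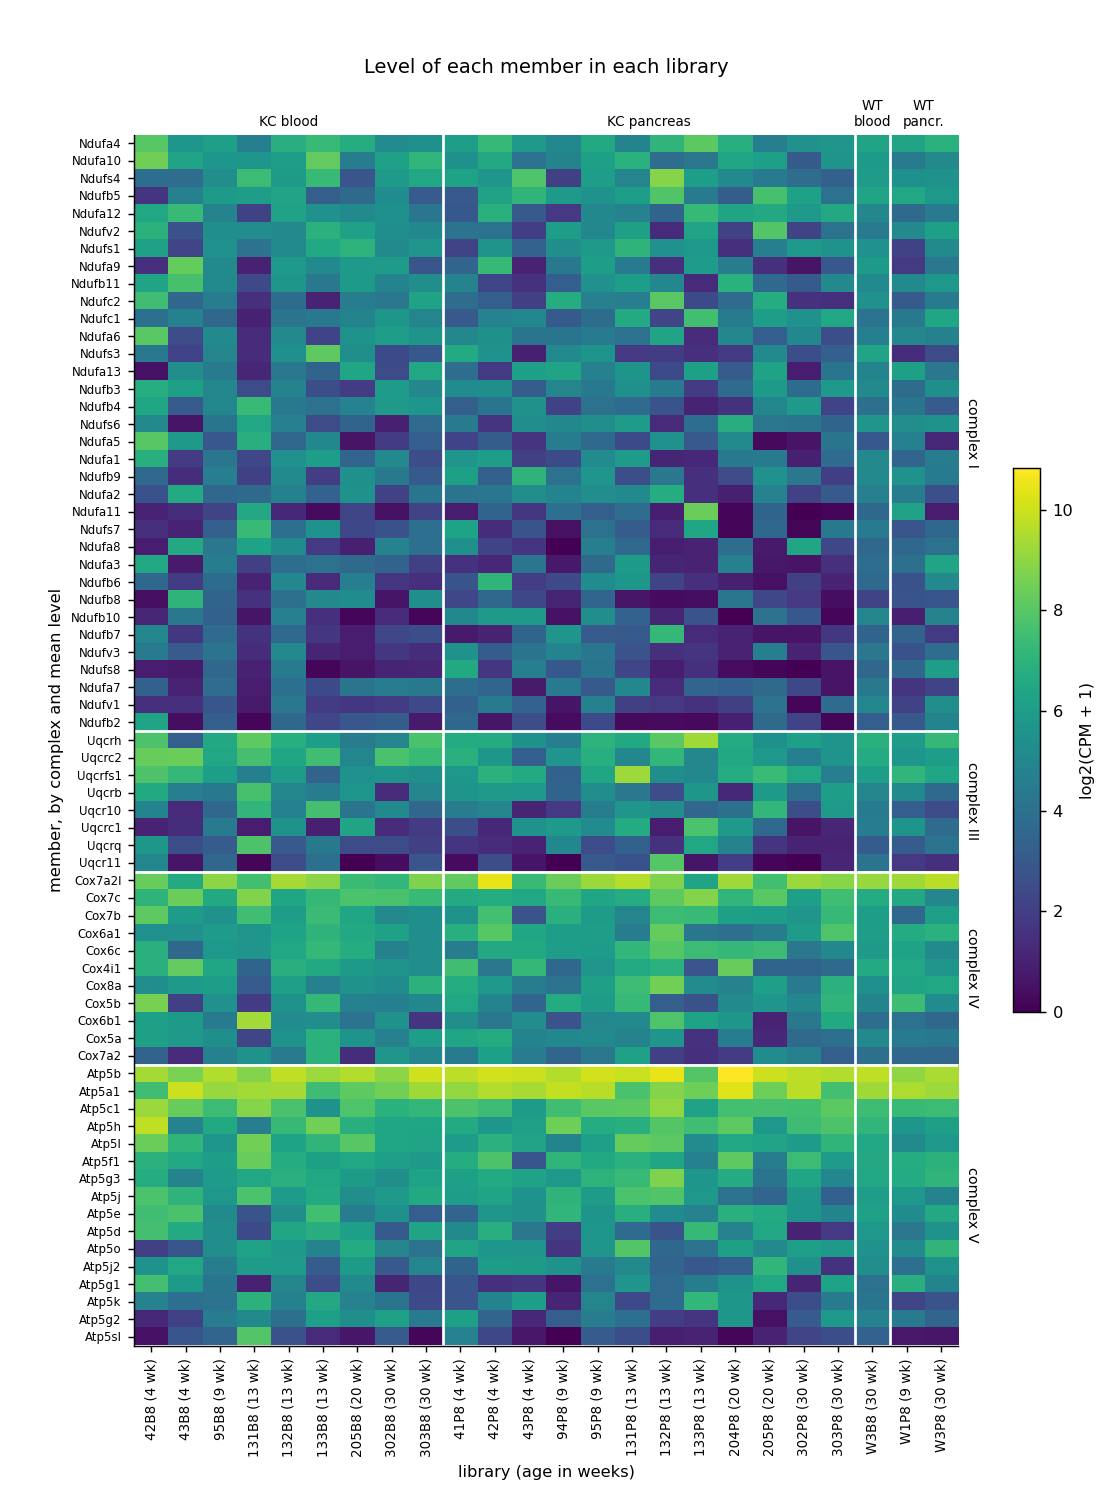
Level of 69 of the 70 members with a mean of at least 5 CPM (rows, by complex and mean level) in each of the 24 libraries (columns, by group and age), as log2(CPM + 1). Dark cells are members under a few CPM; the columns of Sample_95B8, Sample_132B8, Sample_95P8 and Sample_W3B8 hold few of them, and most other columns hold dark and bright cells side by side in the same complex.

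The libraries differed in how many members were detected at a usable level. In Sample_95B8, Sample_W3B8, Sample_132B8 and Sample_95P8 only 1 or 2 of the 70 members were below 5 CPM, and 12313 to 12949 genes were detected. In the other 20 libraries 7 to 28 members were below 5 CPM, and 10066 to 11306 genes were detected. The same held for genes at large: 6.95% to 11.1% of the 8543 genes were below 5 CPM in the 4 libraries, against 21.1% to 54.5% in the other 20. Across the 70 members, log2(CPM + 1) correlated at 0.883 to 0.928 (median 0.912) between the 4 libraries and at 0.223 to 0.752 (median 0.512) between the other 20. The 4 libraries were picked for few low values among these same members, so this contrast is partly built in. Genes are not independent replicates, and depth and detection differ with these libraries. The 4 libraries come from 3 groups and from ages 9, 13 and 30 weeks, so they share no single tissue, genotype or age, though all but Sample_95P8 are from blood.

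**Figure D3:**
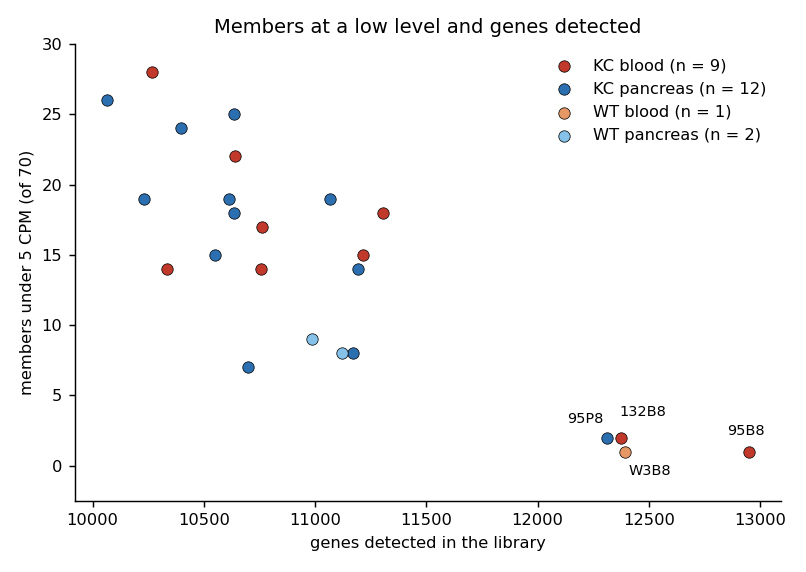
Number of the 70 members below 5 CPM (y axis) against the number of genes detected (x axis), 1 point per library, coloured by group. The 4 libraries with 12313 to 12949 genes have 1 or 2 members below 5 CPM, and the other 20 have 7 to 28.

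Pancreas and blood were compared over 21 KC libraries, with the ages entered as levels, to ask whether T cells in the tissue differ from those in the circulation in respiratory genes. No member passed the threshold of an adjusted p of 0.05 by edgeR's quasi-likelihood test, against 0.0904% of the 11059 genes tested. Of the 71 members tested, 39 had a positive estimate (higher in pancreas), 54.9% against 45.4% of all genes. The median log2 fold change was 0.14 against -0.12 for all genes, and 4 members had an unadjusted p under 0.05, 5.63% against 9.85% of all genes. This median did not hold its sign: it was -0.12 with scaling by total counts alone, where the median of all genes was -0.41, -0.06 with the library set as a term, -0.20 without the 4 libraries that hold few low members, and -0.86 in the libraries of set 1 alone. Leaving out Sample_131P8 gave -0.04, leaving out Sample_133B8 -0.01, and leaving out Sample_42B8 gave 0.48.

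The smallest p belonged to Ndufb8, an accessory subunit of the membrane arm of complex I (chr19:44548572-44555440, minus strand). In KC blood it had 0.364 CPM in Sample_42B8, 129 in Sample_43B8, 10.4 in Sample_95B8, 1.93, 15.1 and 33.2 at 13 weeks, 37.2 in Sample_205B8, and 0.530 and 40.6 at 30 weeks. In KC pancreas it ranged from 0.258 (Sample_132P8) over a median of 3.19 to 18.3 CPM (Sample_204P8). The ranges overlap, with 5 blood libraries above every pancreas library except Sample_204P8, which 4 of them also exceeded. The fitted log2 fold change was -3.36 ± 1.08 (SE), with an adjusted p of 0.232 by edgeR; DESeq2 gave -3.27 with an adjusted p of 0.00124 and called this member alone, in a fit that called 4.33% of all genes. Ndufb2, also of the membrane arm, had -2.26 ± 1.13 (SE, adjusted p 0.507, edgeR), Ndufb5 had 1.74 ± 0.77 (SE, adjusted p 0.443) and Atp5b 0.77 ± 0.36 (SE, adjusted p 0.467).

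In KC blood, the age trend was negative for most members, and none passed the test. The summed level was 8652 and 5599 CPM at 4 weeks, 4265 at 9, 6897, 5462 and 5733 at 13, 4279 at 20, and 3375 and 4848 at 30 weeks, so the 4-week libraries exceeded those of 30 weeks. Of 70 members tested, 60 had a negative slope, against 5574 of all 9933 genes. The median was -0.88 log2 per 10 weeks for members and -0.12 for all genes. The medians by complex were -0.89 for I, -0.96 for III, -0.49 for IV and -0.91 for V. Under edgeR's test 0 members were called, as were 0% of all genes; 11 members had an unadjusted p under 0.05, 15.7% against 8.76% of all genes; all 11 had negative slopes, which 6.11% of all genes combined with such a p. Without Sample_42B8, the library with the highest sum, the median was -0.53 with 58 of 70 negative, and with the library set as a term it was -0.27 with 42 of 70 negative. Both 4-week libraries belong to set 1 and all blood libraries from 20 weeks on belong to set 2. Scaling moved the level of all genes too: with total counts alone the medians were -0.44 for members and 0.15 for all genes.

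In KC pancreas, most members of complex I had negative slopes and most of complex V had positive ones, and none passed the test. Summed complex I was 1010, 1300 and 1409 CPM at 4 weeks, 793 and 1153 at 9, 1289, 1659 and 1451 at 13, 816 and 1326 at 20, and 559 and 613 at 30 weeks. Summed complex V was 2279, 2931 and 2260 CPM at 4 weeks and 2604 and 1949 at 30 weeks, with the highest value of 4425 at 20 weeks (Sample_204P8). Of 35 complex I members 25 had a negative slope, with a median of -0.50 log2 per 10 weeks, and of 17 complex V members 6 did, with a median of 0.08. Over all 71 members tested the median was -0.13, against -0.04 for all 9555 genes, of which 5021 had a negative slope. edgeR called 0 members and 0.293% of all genes, and 3 members had an unadjusted p under 0.05 (4.23% against 8.95% of all genes), all with negative slopes, against 5.83% of all genes. The overall median was 0.05 without Sample_302P8, 0.06 without Sample_303P8 and 0.19 with the library set as a term. Without Sample_303P8, 1 of the 30-week libraries, the median of complex I was 0.04, so its direction rests on that library. The acinar markers also differed between ages in these libraries. They summed to 1254 to 6469 CPM at 4 weeks, 73.6 to 474 at 13 weeks and at most 59.04 CPM at 9, 20 and 30 weeks. The libraries of 4 and 13 weeks are in set 1 and the others in set 2, so a difference between these age groups cannot be told apart from set. In blood the acinar sums were 54.9 to 59.6 CPM in set 1 and at most 1.40 CPM in set 2. The part of acinar content in the slopes, that of Ndufs8 included, was not tested.

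The test of the difference between both trends gave 52 of 71 members a higher slope in pancreas than in blood, 73.2% against 52.6% of all 11059 genes. The median difference was 0.52 log2 per 10 weeks against 0.07 for all genes. No member was called by edgeR, against 0.0543% of all genes; 6 had an unadjusted p under 0.05, 8.45% against 8.32% of all genes. Leaving out Sample_303P8 or Sample_302P8 gave a median of 0.82. With total counts alone the medians were 0.09 for members and -0.26 for all genes. The pancreas and blood slopes enter this difference, so it is not a separate measurement of them.

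**Figure D4:**
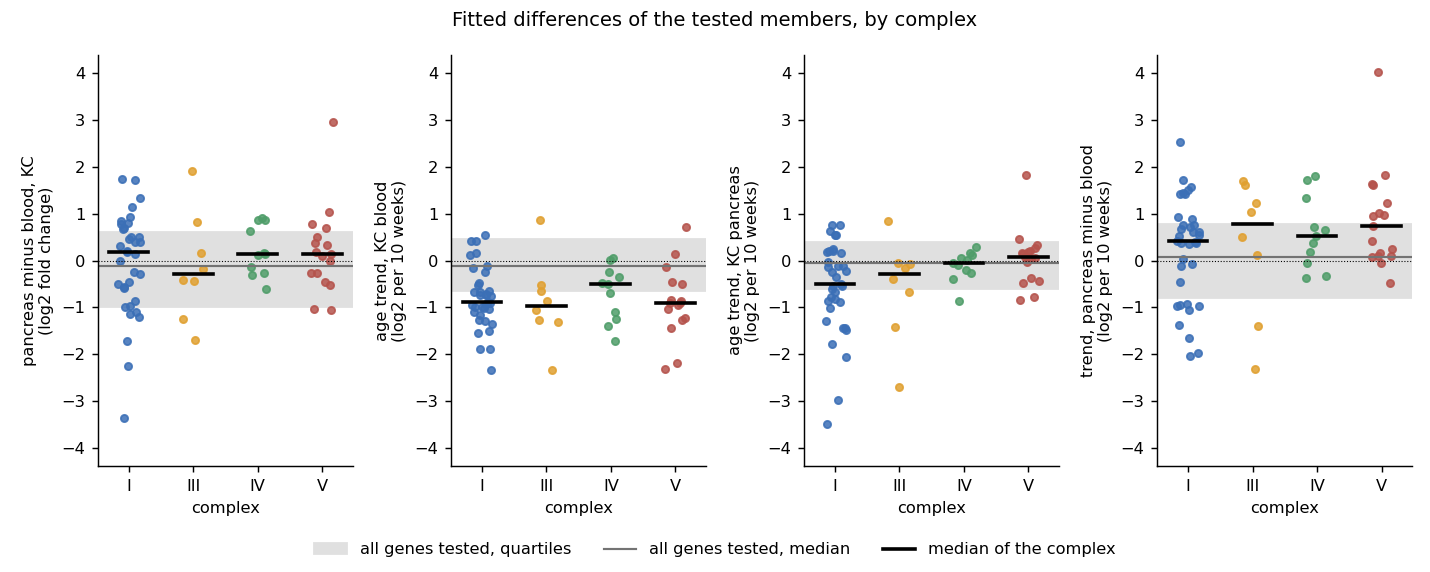
Fitted values of the tested members by complex (points, 1 per gene; black bars are medians) for pancreas minus blood, the age trends in KC blood and KC pancreas, and their difference; the y axes are log2 fold change or log2 per 10 weeks. The grey band and line are the quartiles and median of all genes tested; most points of the KC blood trend lie below the line at -0.12, and complex I has a median of -0.50 in the KC pancreas trend.

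The 3 genes of the c subunit, which forms the rotor ring of the synthase, were followed singly because they encode the same mature protein behind different import sequences. Atp5g1 lies at chr11:96068852-96075670, Atp5g2 at chr15:102662864-102672352 and Atp5g3 at chr2:73908447-73911326, all on the minus strand. Their last 228 coding bases, read from the GENCODE M21 transcripts, translate to the same residues but differ at 58 positions, with identities of 85.1% (Atp5g1 and Atp5g2), 79.8% (Atp5g1 and Atp5g3) and 78.5% (Atp5g2 and Atp5g3). A stretch of 120 of these bases is shown to make visible how reads of the 3 genes can be told apart; capitals mark the positions at which the genes are not all alike.
Atp5g1: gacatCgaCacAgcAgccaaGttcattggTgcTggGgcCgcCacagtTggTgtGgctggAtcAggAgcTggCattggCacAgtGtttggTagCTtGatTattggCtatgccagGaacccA
Atp5g2: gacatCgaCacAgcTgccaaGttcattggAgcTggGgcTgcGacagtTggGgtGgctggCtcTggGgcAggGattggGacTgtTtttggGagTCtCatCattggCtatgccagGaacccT
Atp5g3: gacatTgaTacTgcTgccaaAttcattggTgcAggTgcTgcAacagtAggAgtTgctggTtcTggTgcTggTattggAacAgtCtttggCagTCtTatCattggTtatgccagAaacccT
The genes are transcribed separately, and their levels are set side by side below.

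Atp5g1 had opposite slopes in both tissues. In KC blood it was at 194 (Sample_42B8) and 59.2 CPM (Sample_43B8) at 4 weeks, 17.7 at 9, 1.02, 29.9 and 4.87 at 13, 35.1 at 20, and 1.19 and 4.04 at 30 weeks. In KC pancreas it was at 6.35, 1.86 and 2.11 CPM at 4 weeks, 0.526 and 15.5 at 9, 49.6, 12.7 and 22.1 at 13, 44.8 and 90.1 at 20, and 1.18 and 76.8 at 30 weeks. At 4 weeks each blood library exceeded each pancreas library, while at 30 weeks the tissues overlapped through Sample_302P8 at 1.18 CPM. The slope was -2.19 ± 0.68 log2 per 10 weeks (SE, adjusted p 0.400, edgeR) in blood and 1.83 ± 0.95 (SE, adjusted p 0.617) in pancreas, and the difference was 4.03 ± 1.13 (SE, adjusted p 0.199). DESeq2 called this member in all 3 fits, with -2.38 (adjusted p 0.00928), 1.84 (adjusted p 0.0360) and 4.15 (adjusted p 0.00153), in fits that called 3.17%, 4.42% and 2.15% of all genes. Estimates of the difference kept their sign under each alternative tried, from 2.74 to 4.73. WT pancreas had 113 CPM at 9 weeks and 28.2 at 30 weeks, and WT blood had 15.3.

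Of the other c subunit genes, Atp5g3 was the most even, from 17.6 to 429 CPM in KC pancreas and from 27.9 to 116 CPM in KC blood, with slopes of -0.36 ± 0.68 (SE, adjusted p 0.967, edgeR) and -0.51 ± 0.56 (SE, adjusted p 0.829). Atp5g2 was at 1.36 and 3.40 CPM in blood at 4 weeks and at 71.5 and 21.01 at 30 weeks, with a slope of 0.72 ± 0.87 (SE, adjusted p 0.839, edgeR). In pancreas it ran from 0.412 (Sample_205P8) to 71.3 CPM (Sample_41P8) without order by age. Per kilobase of transcript the mean levels over the 24 libraries were 132.3 CPM for Atp5g3, 41.4 for Atp5g2 and 12.9 for Atp5g1. Whether the slopes differ between these genes was not tested.

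**Figure D5:**
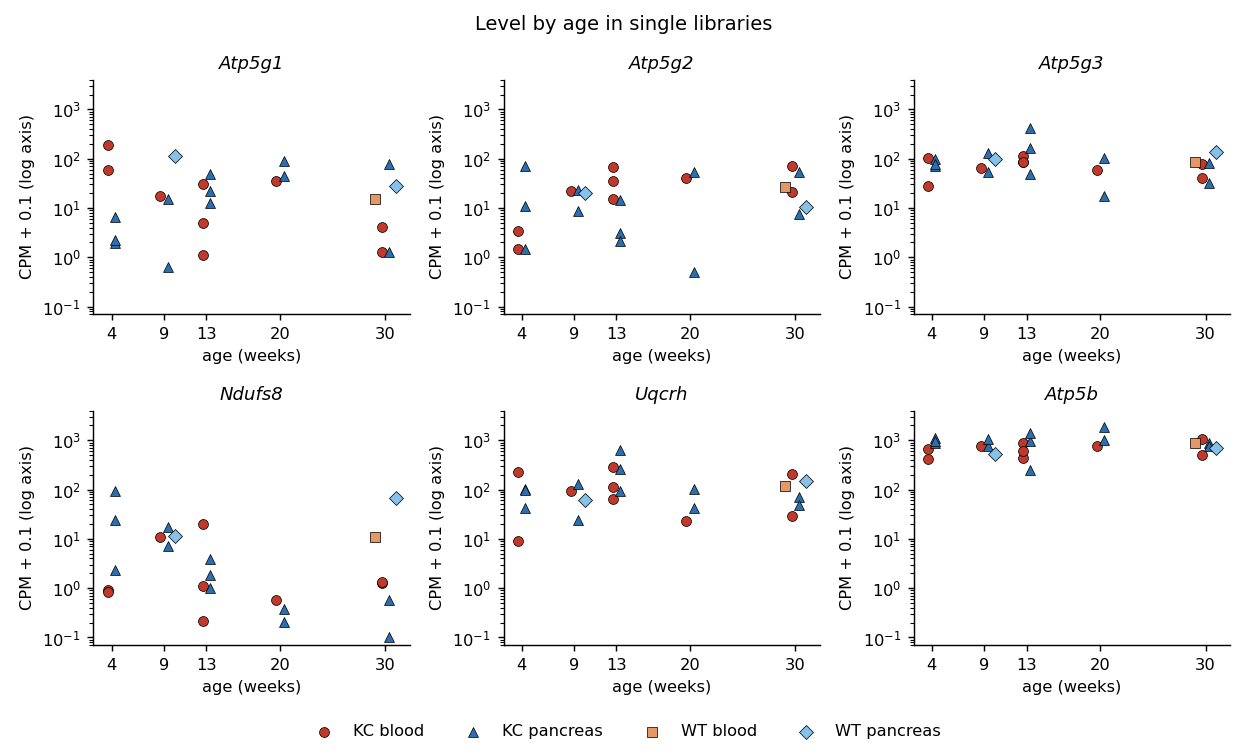
CPM + 0.1 on a log axis (y) against age in weeks (x, groups set slightly apart) for the c subunit genes Atp5g1, Atp5g2 and Atp5g3 and for Ndufs8, Uqcrh and Atp5b, 1 point per library. Atp5g1 lies at 59.2 and 194 CPM in KC blood at 4 weeks and at 1.19 and 4.04 at 30 weeks, and Ndufs8 lies below 1 CPM in the KC pancreas libraries of 20 and 30 weeks.

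Among complex I genes, Ndufs8 had the smallest p in the pancreas trend. It encodes an iron-sulfur subunit of the arm that passes electrons to ubiquinone (chr19:3908863-3912774, minus strand). In KC pancreas it was at 94.3, 2.26 and 23.5 CPM at 4 weeks, 6.97 and 17.7 at 9, 3.76, 0.905 and 1.74 at 13, 0.272 and 0.103 at 20, and 0 and 0.472 at 30 weeks. All libraries of 4 and 9 weeks thus exceeded those of 20 and 30 weeks. The slope was -2.97 ± 0.79 log2 per 10 weeks (SE, adjusted p 0.147, edgeR). DESeq2 gave -3.01 with an adjusted p of 0.000333. edgeR without a filter on low counts gave -2.96 with an adjusted p of 0.0374, in a fit that called 4.76% of all genes. Over the alternatives tried, the slope ran from -4.44 to -2.54. Its adjusted p reached 0.498 with the library set as a term (edgeR). The KC pancreas libraries of 20 and 30 weeks held only 2, 1, 0 and 3 reads of this gene. The WT pancreas libraries had 11.1 CPM at 9 weeks and 66.4 at 30 weeks. KC blood ranged from 0.116 (Sample_133B8) over a median of 1.02 to 20.3 CPM (Sample_132B8), and its slope was -0.91 ± 1.11 (SE, adjusted p 0.846, edgeR); the difference between the slopes was -2.05 ± 1.13 (SE, adjusted p 0.656).

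Ndufa5, an accessory subunit of the matrix arm, was at 258 and 57.5 CPM in blood at 4 weeks and at 2.78 and 8.35 at 30 weeks, with a slope of -2.34 ± 0.80 (SE, adjusted p 0.430, edgeR). Atp5h was at 891 CPM in Sample_42B8 and 26.8 in Sample_43B8, the other 4-week blood library, so the ages overlap; its slope was -1.27 ± 0.46 (SE, adjusted p 0.471, edgeR) in blood and 0.34 ± 0.47 (SE, adjusted p 0.941) in pancreas. The slope difference of Atp5h was 1.64 ± 0.64 (SE, adjusted p 0.400, edgeR), and 0.61 without Sample_42B8. Ndufa8 had a slope of 0.64 ± 0.60 (SE, adjusted p 0.889, edgeR) in pancreas that turned negative without Sample_302P8, where it stood at 83.5 CPM.

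With age as a factor in place of a straight line, which finds any difference between ages, edgeR called 3 members in pancreas and 3 in blood, where it called 6.56% and 2.8% of all genes. In pancreas these were Ndufa11, a membrane arm subunit (324 CPM in Sample_133P8, adjusted p 0.0169), Uqcr11 (253 CPM in Sample_132P8, adjusted p 0.0211) and Uqcrh (632 CPM in Sample_133P8, adjusted p 0.0369). In blood they were Atp5sl (247 CPM in Sample_131B8, adjusted p 0.0222), Cox6b1 (634 CPM in Sample_131B8, adjusted p 0.0280) and Ndufa5 (258 CPM in Sample_42B8, adjusted p 0.0301). Each had its highest level in a single library of an age that has others: Cox6b1, for example, was at 36.4 and 38.8 CPM in the other 13-week blood libraries, and Uqcr11 at 5.64 and 0.543 CPM in the other 13-week pancreas libraries.

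KC was compared with WT in pancreas, as the mean difference at 9 and 30 weeks, and in blood at 30 weeks, with 1 WT library per tissue and age, which is assumed to vary like the KC groups. All WT libraries are in set 1 and all KC libraries of these tissues and ages are in set 2, so genotype and library set cannot be told apart in the values below. Under edgeR's test 0 of 73 members were called in pancreas, against 0.226% of 12374 genes, with 3 at an unadjusted p under 0.05 (4.11% against 5.79% of all genes), all lower in KC, against 2.72% of all genes; in blood 0 of 72 members and 0% of 12496 genes were called, with 0 at an unadjusted p under 0.05, against 2.83% of all genes. DESeq2 called 0 members in either, and 1.28% and 0.088% of all genes. The median log2 difference of KC minus WT was -0.08 in pancreas, against 0.41 for all genes, and -0.64 in blood, against 0.00 for all genes. In pancreas this median moved with single libraries, to -0.53 without Sample_303P8, -0.41 without Sample_94P8, -0.33 without Sample_W1P8, -0.25 without Sample_95P8 and -0.17 without Sample_302P8. In blood 51 of 72 members had a negative estimate, among them 14 of 16 of complex V, against 5960 of 12496 genes. With the library set as a term, the medians in blood were -0.30 for members and -1.73 for all genes, so the members then lay above all genes. Only the KC blood libraries of 13 weeks hold both sets. That term therefore rests on Sample_131B8 (set 1) against Sample_132B8 and Sample_133B8 (set 2). The smallest p in pancreas was that of Ndufs8, at -4.10 ± 1.84 (SE, adjusted p 0.811, edgeR), followed by Ndufa3, an accessory subunit, at -3.93 ± 1.79 (SE, adjusted p 0.811). The value of Ndufs8 was -7.95 without Sample_W1P8, -6.20 without Sample_303P8 and -0.25 without Sample_W3P8, and that of Ndufa3 was -5.99 without Sample_W1P8 and -1.88 without Sample_W3P8. In the opposite direction stood Atp5h at 1.93 ± 1.198 (SE, adjusted p 0.889, edgeR) and Cox7b at 1.78 ± 1.40 (SE, adjusted p 0.907). Ndufa3 was at 15.2 (9 weeks) and 78.9 CPM (30 weeks) in WT pancreas and at 0.657 and 12.3 (9 weeks) and 0.471 and 1.73 CPM (30 weeks) in KC pancreas. KC pancreas libraries of other ages reached 59.0 (Sample_131P8) and 25.1 CPM (Sample_204P8), above the WT library of 9 weeks.

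In blood at 30 weeks, Ndufb10 was at 29.6 CPM in the WT library and at 1.46 and 0.139 in the KC libraries, with an estimate of -5.30 ± 2.82 (SE, adjusted p 1, edgeR). Ndufs3, a core subunit of the matrix arm whose promoter is shown above, was at 80.0 CPM in WT and 4.37 and 6.96 in KC, with -3.87 ± 2.23 (SE, adjusted p 1, edgeR). KC blood libraries of 13 weeks reached 25.3 CPM for Ndufb10 (Sample_132B8) and 283 CPM for Ndufs3 (Sample_133B8). The WT blood library Sample_W3B8 is 1 of the 4 with few members at a low level. In the opposite direction Ndufb8 had 2.46 ± 2.72 (SE, adjusted p 1, edgeR), which was -2.91 without Sample_303B8, and Ndufb4 had 1.78 ± 2.30 (SE, adjusted p 1, edgeR).

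The WT libraries of 30 weeks, Sample_W3P8 and Sample_W3B8, allow a description of pancreas against blood with no replicate. On the log2(CPM + 1) scale the median over the 70 members was -0.33 (lower in pancreas), against -0.26 over 8052 genes, with 28 of 70 higher in pancreas, 40% against 40.5% of all genes. More than 2-fold higher were 9 members, 12.9% against 14.6%, and more than 2-fold lower were 15, 21.4% against 28.9%, so the members' shares were near or below those of all genes. Ndufs3 stood farthest apart, at 4.63 CPM in Sample_W3P8 and 80.0 in Sample_W3B8.

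Other genes of the pathway gave few calls. Lists of complex II and electron carriers (11 genes tested), assembly factors (44), other subunits and small partners outside the naming rule (6), regulators of respiratory genes (15) and the tricarboxylic acid cycle (16) had no called gene in pancreas against blood, by edgeR's test, against 0.0904% of all genes. At an unadjusted p under 0.05 were 1, 2, 1, 0 and 1 of them, or 9.09%, 4.55%, 16.7%, 0% and 6.25%, against 9.85% of all genes. In the pancreas trend 1 of 38 assembly factors was called, where 0.293% of all genes were. This was Ndufaf6, with a slope of -4.75 ± 0.997 log2 per 10 weeks (SE, adjusted p 0.0342, edgeR). It was at 465 CPM in Sample_43P8 and at 4.91 CPM or less in the other 11 KC pancreas libraries, and without Sample_43P8 the slope was -2.36 with an adjusted p of 0.731; the adjusted p was also 0.0844 without Sample_204P8, 0.0661 without Sample_205P8 and 0.0624 without Sample_302P8. In the blood trend the cycle enzymes had 13 of 16 negative slopes with a median of -0.40, and complex II with the carriers 9 of 11 with a median of -0.44. Of all 9933 genes 5574 had negative slopes, with a median of -0.12. No gene of these lists was called, and 0% of all genes were. Smallest p-values in that trend were those of the assembly factor Ecsit, at -2.29 ± 0.76 (SE, adjusted p 0.414, edgeR), Idh3g of the isocitrate dehydrogenase complex, at -1.56 ± 0.57 (SE, adjusted p 0.471), Minos1, at -1.68 ± 0.73 (SE, adjusted p 0.527), the helicase gene Peo1, at -2.13 ± 0.74 (SE, adjusted p 0.441), and Dhodh, at 3.46 ± 1.62 (SE, adjusted p 0.556). In pancreas against blood the smallest p-values of the lists were those of Sdhaf4 (-3.68), Sdhd (-2.35), Higd1a (-2.48), Suclg1 (-2.44) and Tfb2m (-1.48), with adjusted p from 0.267 to 0.639 by edgeR. In the pancreas trend they were, beside Ndufaf6, those of Minos1 (-1.75), Pdha1 (1.09), Polg (-1.46) and Sdhc (0.56), with adjusted p from 0.499 to 0.838. In the trend difference they were Ecsit (3.07), Dld (1.87), Usmg5 (1.85), Nrf1 (1.54) and Dhodh (-2.86), with adjusted p from 0.362 to 0.740. KC against WT gave Lyrm7 (-5.58), Dhodh (5.90), Atpif1 (-3.50), Ppargc1b (4.59) and Mdh2 (1.71) in pancreas, with adjusted p from 0.690 to 0.929, and Polrmt (-7.82), Ecsit (-4.01), Atpif1 (-3.04), Cyc1 (-2.93) and Idh3g (-2.70) in blood, each with an adjusted p of 1.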

How the data were processed

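RNA of sorted CD8+ T cells was sequenced in 24 libraries. The deposited counts are whole reads per gene symbol as the authors counted them, without normalisation; per the submitters' processing notes TopHat, SAMtools, HTSeq and DESeq and the build mm10 were used, with versions and strand setting not given in the sources used here. The 5 rows of unassigned reads were left out; 11.7% to 32.5% of reads were assigned to genes. CPM used all assigned reads.

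Groups and ages came from the labels. Tests were two-sided robust quasi-likelihood F-tests of edgeR 4.0.16 (R 4.3.3) after TMM scaling, on genes that filterByExpr kept at min.count 10, with Benjamini-Hochberg adjustment, and DESeq2 1.42.0 as an alternative. The SE is the absolute log2 value over the square root of F. The scripts were tested on simulated counts. Named genes are the 3 highest and the lowest member of each complex, the 2 of smallest p per direction and comparison, isoform pairs, c subunit genes, and called or smallest-p genes of the lists; Ndufa11 and Atp5sl were added after their values were seen, and 1 member is counted but not reported by name here. Transcript lengths are medians of the APPRIS principal transcripts of GENCODE M21. Members, lists and tests were chosen with earlier results of these data known. Leaving out the 4 libraries with the fewest low members was added after seeing the data. The 2 library sets came from k-means clustering (scikit-learn 1.9.0) on genes whose top library reached 100 CPM or more while none of the others exceeded 5% of it.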

Additional observations from a re-analysis of the deposited data

Results flagged for a closer look

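In KC blood, the only group of 4 to 10 libraries, the gap between the extreme library and its neighbour was set against the range of the 9 libraries by Dixon's test at the 95% level. Of 37 values tested, 13 exceeded it. Chance flags about 1 in 20 groups of normally distributed values, but CPM are skewed: the same line was passed by 33.3% of the 8543 genes with a mean of at least 5 CPM and by 27 of the 70 members with such a mean. Some of the genes below were named for slopes fitted to these same libraries, so the count shows nothing particular to the members. The library Sample_42B8 (4 weeks) stood above the others in the sum of complex I, at 2341 CPM against 1519 in the next, in Atp5g1 (193.6 CPM), Atp5h (891), Ndufa3 (86.0), Ndufa5 (258), Ndufb2 (79.0) and Uqcr11 (31.2). The library Sample_43B8 of the same age stood above the others in Cox4i1 (298 CPM) and Ndufb8 (129). At 13 weeks, Sample_131B8 did so in Cox6b1 (634 CPM) and Ndufb4 (160), and Sample_133B8 in Cox7a2 (125) and Ndufs3 (283). All these libraries but Sample_133B8 belong to set 1, and each had 14 to 28 of 70 members below 5 CPM. The part of these features in the high values was not tested.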

How the results depend on the processing

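Of 137 fits other than those reported, 130 called no member. Members called were 1 by DESeq2 in pancreas against blood, 2 by DESeq2, 2 without an expression filter and 3 with age as a factor in the pancreas trend, 1 by DESeq2 and 3 with age as a factor in the blood trend, and 1 by DESeq2 in the trend difference. Leaving out each library in turn called 0 members in each comparison; the members' median ran from -0.04 to 0.48 in pancreas against blood, -0.23 to 0.06 in the pancreas trend, -0.97 to -0.53 in the blood trend, 0.35 to 0.82 in the trend difference, and -0.53 to -0.08 and -0.91 to -0.49 for KC against WT in pancreas and blood. The median was -0.86 in set 1 alone for pancreas against blood and -0.27 with the set as a term in the blood trend. When single libraries were left out, signs turned for Ndufa8 (-0.56 without Sample_302P8 to 1.36, pancreas trend) and Ndufb8 (-2.91 without Sample_303B8 to 3.44, KC against WT); the cause was not tested. Over all genes, calls numbered 10, 28, 0, 6, 28 and 0 in the 6 comparisons by edgeR and 479, 422, 315, 238, 158 and 11 by DESeq2; without a filter they were 34, 686, 102, 8, 27 and 0. Title numbers were not taken as pairs: deviations of same-numbered libraries correlated at -0.066 to 0.0071 over 7 title numbers, which give 5 different values, and the check gives none for the ages with 1 blood library. With the replicate block, 0 members were called and the medians were 0.17 in pancreas against blood and 0.09 in the trend difference. A fit of KC against WT pancreas with the set as a term could not be had, since each genotype and age lies in 1 set, nor one of blood without the WT library. At these depths and this spread between libraries (biological coefficient of variation 1.12 to 1.32), small differences were not detectable and large estimates did not pass either. edgeR did not call Ndufb8 at a log2 of -3.36 in pancreas against blood, nor Atp5g1 at 4.03 per 10 weeks in the trend difference. The lack of calls therefore does not show that levels were unchanged.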
